A study of Danio rerio with 18 samples.

Results

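The germ plasm and germ cell genes described here are ddx4, nanos3, dnd1, dazl, tdrd7a, buc, piwil1, piwil2 and ca15b in zebrafish (Danio rerio). They were taken by gene symbol from the deposited count table and joined by gene ID to the deposited comparisons, which gave 9 genes of the 17135 in each comparison. The 9 genes were chosen with earlier results of these data known. Their counts beside shares of all tested genes are therefore no test of the group. RNA was measured in whole wild type embryos by enriched SLAM-seq, in which RNA made after injection of the nucleotide s4UTP is captured through biotin and its modified bases are converted chemically. The 6 groups had 3 biological replicates each. They were embryos injected with s4UTP and cdk9 mRNA to overexpress CDK9, embryos injected with s4UTP and MiR430 microRNA, and embryos injected with s4UTP alone, called untreated here, each at the 256-cell and the 1024-cell stage of zygotic genome activation. All embryos were dechorionated with Pronase and carried s4UTP, and none was given unrelated mRNA or microRNA as a control, so an effect of injected RNA as such cannot be told apart from one of CDK9 or MiR430. The study asked how the loss of transcription bodies and the level of CDK9, the kinase that releases paused RNA polymerase II, bear on this activation.

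Germ plasm is a maternally made mass of RNA and protein that marks the cells which will become the germ line. In zebrafish it is inherited by a few cells of the early embryo, while most cells become somatic. Many of its RNAs are loaded into the egg and are also present outside the germ plasm, where they are cleared during early development. The microRNA miR-430 takes part in that clearance by binding sites in 3′ untranslated regions. In zebrafish, nanos3 and tdrd7a are documented targets of miR-430, and the RNA-binding protein Dnd1 protects them from it in germ cells. Whole embryos were assayed, so fewer germ cells, less RNA per germ cell and less RNA outside germ cells cannot be told apart in any value below.

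The level of a gene is given as the authors' mean normalized count, averaged over the libraries of all groups. It is given per kilobase (kb) of exon where genes are compared. Each value per kb is the authors' deposited mean divided here by the exon length in the count table. The libraries were enriched for RNA made after injection, so a level is not the abundance of all RNA of a gene. New RNA and RNA from the egg that came through the capture were not told apart. Values of single libraries were not used here, because the names of the library columns match no sample label. There is therefore no spread over samples behind the levels, and neighbours in their order were not tested. The buc gene, whose protein organises the germ plasm and the Balbiani body of the oocyte, had the highest level with a mean of 123.0 normalized counts and 39.2 counts per kb by the authors' deposited table. It lies on chromosome 2 from 27855102 to 27859558 (GRCz11, as for all coordinates here) on the plus strand in 5 exons. A gene on the opposite strand, FO834800.1, shares 187 exon bases with it and had a mean of 5.29 counts by the authors' deposited table.

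Among the RNA-binding proteins, dazl, a translational activator of germ cells, came next with a mean of 58.3 normalized counts and 24.2 counts per kb by the authors' deposited table (chromosome 19, 20389104 to 20403871, 11 exons). The helicase gene ddx4, the zebrafish vasa, had a mean of 26.0 counts and 9.0 counts per kb by the authors' deposited table (chromosome 10, 6884123 to 6905574, 27 exons). Levels were lower for the translational repressor gene nanos3, with a mean of 7.37 counts and 6.54 counts per kb in its single exon by the authors' deposited table (chromosome 1, 55247370 to 55248496). The dnd1 gene had a mean of 13.0 counts and 5.94 counts per kb by the authors' deposited table (chromosome 14, 7397804 to 7409364, 4 exons). These last genes rest on few reads, since at its mean level nanos3 gives about 22.1 normalized counts over the 3 libraries of a group, against 109 for tdrd7a.

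The tudor domain gene tdrd7a, which shapes germ granules, had a mean of 36.2 counts and 9.25 counts per kb by the authors' deposited table (chromosome 1, 12195700 to 12228116, 19 exons). For ca15b, a carbonic anhydrase gene with transcripts in germ plasm, the mean was 40.4 counts and the level 20.2 counts per kb by the authors' deposited table (chromosome 12, 4294923 to 4301376, 9 exons). The genes of the Piwi proteins, which bind piRNAs and silence transposons in the germ line, lay lower per length by the authors' deposited table, with 8.73 counts per kb for piwil2 (mean 65.6, chromosome 5, 16428411 to 16475682, 24 exons) and 5.58 for piwil1 (mean 22.6, chromosome 8, 44224693 to 44299247, 23 exons). All 9 genes exceeded the median of 4.44 counts per kb over the 17098 nuclear genes, and buc and dazl stood at the 95.2th and 90.8th percentile. The level of buc was 7.03 times that of piwil1 per kb, while nanos3 was lowest by count alone. Together the 9 genes held 0.0815% of the summed mean counts of nuclear genes.

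**Figure D1:**
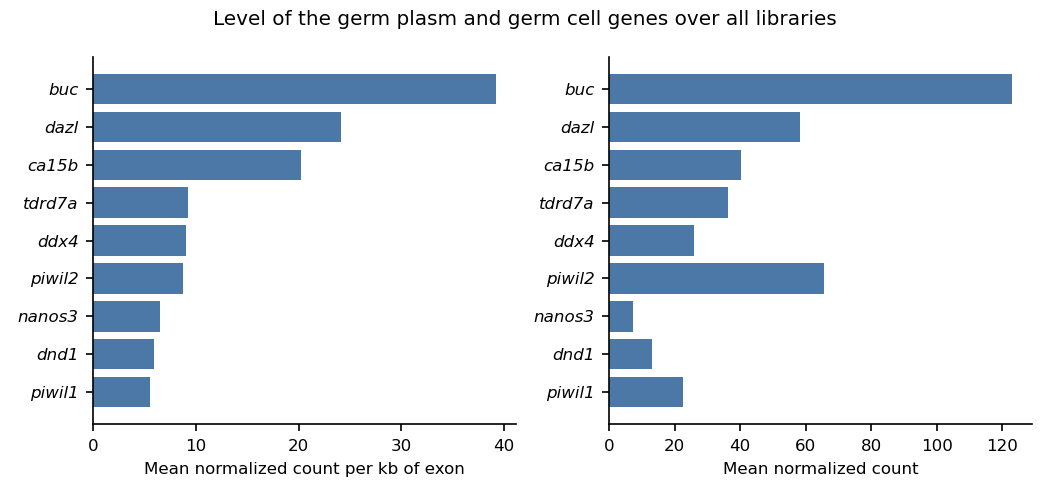
Mean normalized count of the 9 genes over all libraries, from the authors' deposited table, on the right. On the left these means were divided here by the kb of exon. No error bars are shown because library values were not used. Per kb buc stands at 39.2 and piwil1 at 5.58, and piwil2 moves up to second place when counts are not divided by its length.

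The values below are the authors' shrunken log2 fold changes of injected over untreated embryos with their standard errors (SE). A gene was called where the authors' adjusted p was under 0.05. The cdk9 gene was higher under CDK9, with a log2 fold change of 6.79 (SE 0.41) at the 256-cell stage and 5.88 (SE 0.39) at the 1024-cell stage by the authors' deposited table. Reads of the injected mRNA and of new cdk9 RNA were not told apart. Markers of the early embryo were abundant, with means of 1563 for nanog, 362 for pou5f3 and 306 for sox19b by the authors' deposited table. Of 6 markers of differentiated somatic cells, 2 were listed in the comparisons, with means of 0.412 and 2.56 counts by the authors' deposited table.

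Under CDK9 at the 1024-cell stage 1 of the 9 genes was called, the granule gene tdrd7a, and it was lower. Its value was -1.19 (SE 0.61, adjusted p = 0.0328) by the authors' deposited table, which is 0.438 of the untreated level. The dazl and ddx4 genes came next with values below 0 that were not called. With tdrd7a they were the 3 genes lower at an unadjusted p under 0.05, beside 3.8% of tested genes, in a set chosen with earlier results known. The other 6 genes lay between -0.15 and 0.040 by the authors' deposited table. For comparison, 744 of 11724 tested genes were called in either direction (6.35%), of which 54 were lower (0.461%) and the rest higher (5.89%). Among tested genes with a mean count within the range of these 9 genes, 0.533% were called lower. Some markers of the early embryo, its enveloping layer and the yolk syncytial layer were higher in the same comparison, and their part in these values was not tested. Of 3 early embryo markers 1 was called higher by the authors' deposited table, nanog at 1.99 (adjusted p = 0.00435), with 1 of 3 listed markers of the enveloping layer, krt8 at 4.32 (adjusted p = 0.00171), and 1 of 2 of the yolk syncytial layer, mxtx2 at 3.01 (adjusted p = 0.00553).

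For tdrd7a the approximate 95% interval from the deposited SE ran from -2.39 to 0.0073 on the log2 scale, so the size of the fall is poorly known. This interval was built from the shrunken estimate and its SE, which do not give back the deposited p. It can therefore span no change for a called gene. The signed z statistic of tdrd7a, made from the deposited p and the sign of the fold change, was -3.14 and ranked 34th from the lowest of 11724. The 54 genes called lower had a median log2 fold change of -2.23 by the authors' deposited table, and that of tdrd7a was the smallest fall among them. The authors' own marking, which asks for an adjusted p below 0.01 and for more than 2 on the log2 scale in either direction, took 2.75% of tested genes and left out tdrd7a.

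The dazl gene had a log2 fold change of -0.93 (SE 0.57) with an unadjusted p of 0.00369 and an adjusted p of 0.0545 by the authors' deposited table. It was ranked 61st from the lowest of the tested genes by its z of -2.90. The call of dazl depends on the genes it is adjusted with and on the centre of the statistics. Its adjusted p was 0.0247 when only genes with a mean of at least 50 were tested. With its mean of 36.2, tdrd7a does not enter that test. The adjusted p of dazl was 0.0424 when the statistics were recentred on their median, and 0.0790 when adjusted over every gene with a p. For ddx4 the log2 fold change was -0.53 (SE 0.57, unadjusted p = 0.0396, adjusted p = 0.245) by the authors' deposited table.

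The remaining 6 genes lay near 0 at this stage by the authors' deposited table. The germ plasm organiser buc stood at -0.15 on the log2 scale (SE 0.40, adjusted p = 0.769) and the carbonic anhydrase gene ca15b at -0.051 (SE 0.26, adjusted p = 0.928). For the other miR-430 target, nanos3, the value by the authors' deposited table was -0.026 (SE 0.54, adjusted p = 0.978), with an interval from -1.08 to 1.03. Among 1519 other tested genes with a mean of 0.8 to 1.25 times that of nanos3, 9 were called lower and the smallest of these falls was -2.14 on the log2 scale, so no fall of the size seen for tdrd7a was called at that depth. Its protector gene dnd1 had 0.012 (SE 0.36), and piwil1 and piwil2 had -0.025 (SE 0.41) and 0.040 (SE 0.37) by the authors' deposited table, with adjusted p of 0.985, 0.974 and 0.952. Over the 9 genes the median log2 fold change was -0.051 and 7 were below 0 (77.8%), beside a median of 0.036 and 43.97% below 0 over all tested genes.

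**Figure D2:**
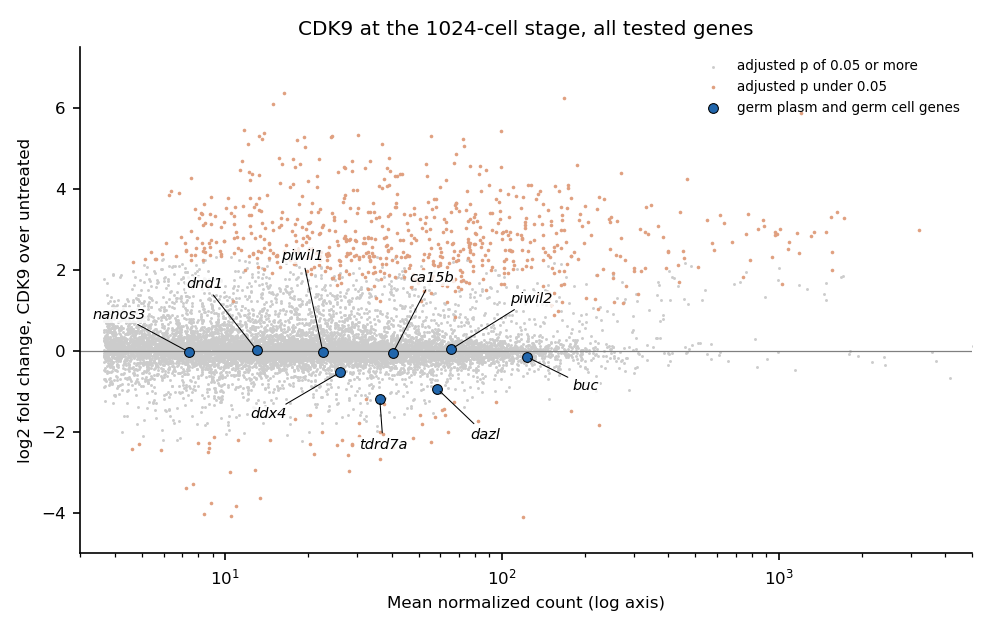
Log2 fold change of CDK9 over untreated embryos at the 1024-cell stage against the mean normalized count on a log axis, for the tested genes of the authors' deposited table (20 genes lie outside the axes). Orange points have an adjusted p under 0.05; tdrd7a at -1.19 lies at the inner edge of the genes called lower, dazl at -0.93 and ddx4 at -0.53 lie above it, and the other 6 genes sit close to 0.

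At the 256-cell stage none of the 8 genes with an adjusted p was called under CDK9, beside 5.41% of 9124 tested genes called in either direction, 0.373% called lower and 5.04% called higher. At an unadjusted p under 0.05, 1 of the 9 was lower, dazl, beside 3.12% of tested genes, and 0 were higher, beside 14.1% of tested genes, by the authors' deposited table. The dazl value was -0.68 (SE 0.40, unadjusted p = 0.0179, adjusted p = 0.165). The values of ddx4 and tdrd7a were -0.37 (SE 0.43, adjusted p = 0.508) and -0.35 (SE 0.38, adjusted p = 0.507) by the authors' deposited table. Of 3 listed enveloping layer markers grhl3 and krt8 were called higher at this stage, at 9.19 and 5.92 on the log2 scale, and of 2 yolk syncytial layer markers mxtx2 was, at 4.86 by the authors' deposited table, while 0 of 3 early embryo markers were called.

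On the other side of 0 at this stage stood buc, with 0.34 (SE 0.48, adjusted p = 0.552), piwil2 with 0.13 (SE 0.46) and ca15b with 0.11 (SE 0.33) by the authors' deposited table. The piwil1 gene had -0.13 (SE 0.50) and dnd1 0.069 (SE 0.45) by the authors' deposited table. The value of nanos3 by the authors' deposited table was 0.044 (SE 0.54, unadjusted p = 0.842), without an adjusted p, since genes below a mean of 8.45 had none in this comparison. The median over the 8 tested genes was -0.032, beside 0.073 over all tested genes, and 4 of the 8 were below 0, beside 41.2% of all tested genes.

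**Figure D3:**
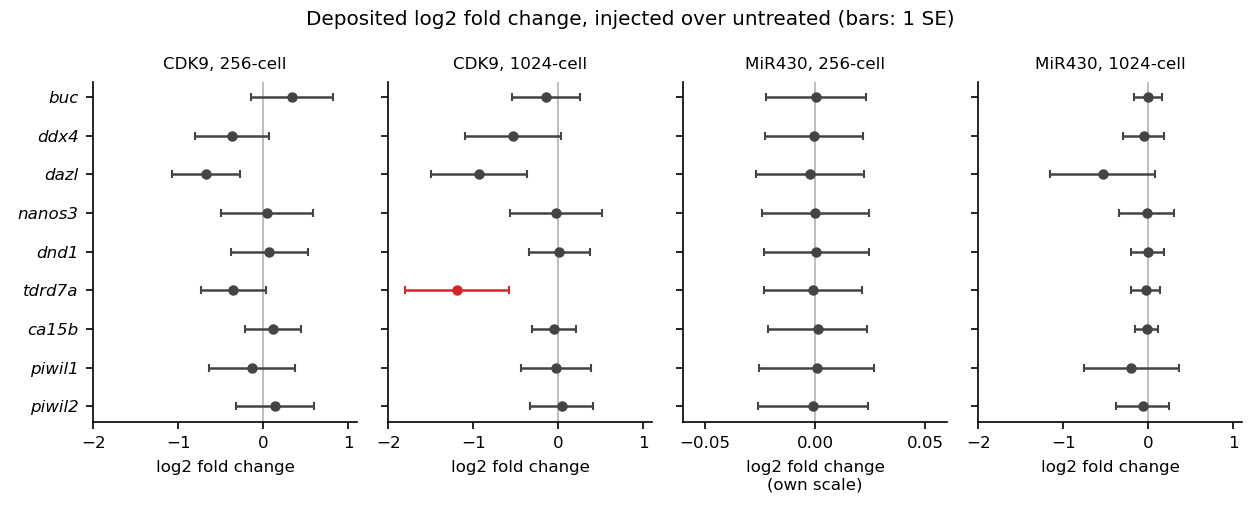
Deposited log2 fold change of injected over untreated embryos for the 9 genes in each of the 4 comparisons, with bars of 1 SE and called values in red. The panel of MiR430 at the 256-cell stage has its own narrow axis because those estimates were shrunken almost to 0. The 1 red value is tdrd7a under CDK9 at the 1024-cell stage, and dazl, ddx4 and tdrd7a lie below 0 in each panel.

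Under MiR430 extra microRNA was injected, so the values of the documented targets tdrd7a and nanos3 were read. RNA made after injection of s4UTP was captured, while miR-430 takes part in clearing RNA loaded into the egg. Clearance of that older RNA may therefore be missed, and these values do not test it. Neither tdrd7a nor nanos3 was called lower at either stage. At the 1024-cell stage tdrd7a stood at -0.033 on the log2 scale (SE 0.17, adjusted p = 0.833) with an interval from -0.36 to 0.29, and nanos3 at -0.017 (SE 0.32, adjusted p = 0.983) with an interval from -0.65 to 0.62 by the authors' deposited table. These estimates were shrunken, so the intervals are narrower than unshrunken ones would be. In all 1.07% of 10748 tested genes were called in this comparison, with 0.0558% called lower and 1.01% called higher.

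None of the 9 genes was called under MiR430 at the 1024-cell stage, and 1 was lower at an unadjusted p under 0.05, beside 2.18% of tested genes. That gene was dazl again, with -0.54 (SE 0.62, unadjusted p = 0.00912, adjusted p = 0.195) by the authors' deposited table and a rank of 64th from the lowest. The piwil1 value by the authors' deposited table was -0.20 (SE 0.56, unadjusted p = 0.109, adjusted p = 0.626). All 9 values lay below 0, from -0.54 to -0.0058, beside 44.7% of all tested genes. Their median signed z was -1.05, beside 0.14 over all tested genes, and a shift of the group was not tested. The comparisons of CDK9 and of MiR430 at a stage share their untreated libraries, so these values are not independent of those under CDK9.

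At the 256-cell stage the deposited log2 fold changes under MiR430 carry no size, with values from -0.0023 to 0.0012 over the 9 genes by the authors' deposited table. By the unadjusted p of the authors' deposited table none of them passed 0.05, beside 1.92% of tested genes that passed it as lower, and dazl was nearest with 0.0504 and a value below 0. The unadjusted p by the authors' deposited table was 0.391 for tdrd7a, which lay below 0, and 0.799 for nanos3, which lay above 0. The other 6 had by the authors' deposited table unadjusted p of 0.208 to 0.585, and the adjusted p was 1 for all 9. Of the 9 genes 4 were below 0, beside 47.5% of all tested genes. In this comparison 0.0566% of 12373 tested genes were called, with 0.0242% lower and 0.0323% higher.

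**Figure D4:**
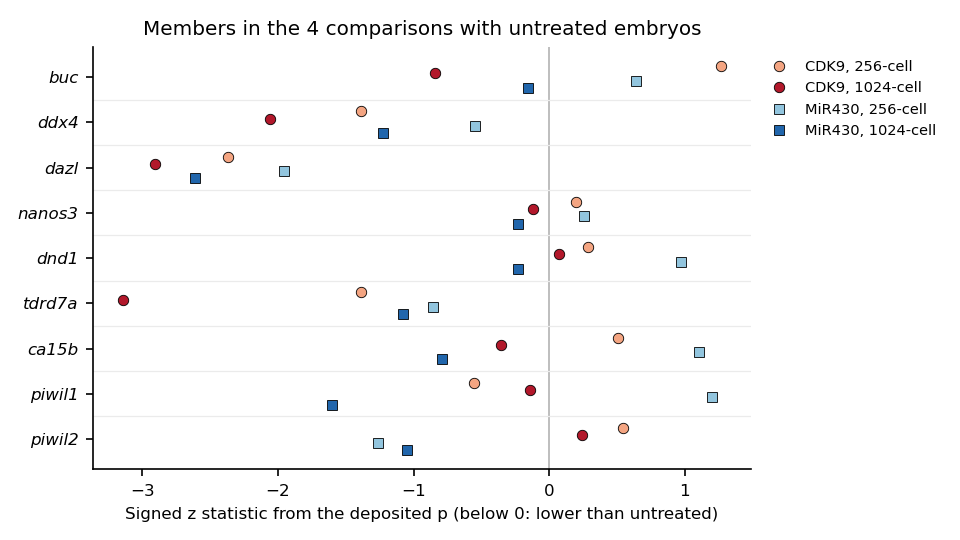
Signed z statistic of the 9 genes in the 4 comparisons, made from the authors' deposited p and the sign of the fold change, with values below 0 lower than untreated. The dazl points lie between -2.90 and -1.96, tdrd7a reaches -3.14 under CDK9 at the 1024-cell stage, and the dark blue squares of MiR430 at the 1024-cell stage all lie left of 0.

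Whether the response of a gene differed between stages was tested through the difference of its z statistics at the 1024-cell and the 256-cell stage, since the stages have separate untreated libraries. For CDK9 the largest differences were -1.49 for buc (unadjusted p = 0.136) and -1.24 for tdrd7a (unadjusted p = 0.215). Both had an adjusted p of 0.992 over 16996 genes, of which 0.0412% were called. A stage-specific fall of tdrd7a was thus not shown by this test. For MiR430 piwil1 differed by -1.98 (unadjusted p = 0.0478, adjusted p = 1), and 0.0235% of genes were called.

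Other genes of the germ line pathway were read from 6 lists, chosen with earlier results of these data known. Among transcripts carried in germ plasm or germ cells, 14 genes were measured, of which 11 had an adjusted p under CDK9 at the 256-cell stage. Under CDK9 1 was called lower at the 1024-cell stage, tdrd7a, beside 0.461% of tested genes. At the 256-cell stage 1 was called higher, cxcr4b, beside 5.04% of tested genes. The chemokine receptor gene cxcr4b, which guides migrating germ cells, rose at the 256-cell stage with a value of 6.42 (SE 2.05, adjusted p = 0.00126) and had 1.62 (SE 1.61, adjusted p = 0.117) at the 1024-cell stage by the authors' deposited table. Its mean was 371 normalized counts by the authors' deposited table, the highest of the list, over libraries that include those in which it rose. It was followed by the maternal linker histone gene h1m with 110 counts and log2 fold changes of 0.26 and 0.094 at the 256-cell and 1024-cell stages. Another gene of this list, gra, had a z close to that of dazl under CDK9 at the 1024-cell stage, with -1.37 (SE 0.93, adjusted p = 0.0772) by the authors' deposited table, a gene named after its value was seen. With ddx4, dazl and tdrd7a it made the 4 genes lower at an unadjusted p under 0.05 there, beside 3.8% of tested genes. The 1 gene higher at that p was cxcr4b, beside 14% of tested genes. Under CDK9 at the 256-cell stage 1 was lower and 1 higher, beside 3.12% and 14.1%. The list had 0 calls under MiR430, beside 0.0566% of tested genes called at the 256-cell stage and 1.07% at the 1024-cell stage. At an unadjusted p under 0.05, 2 were lower and 0 higher at the 1024-cell stage, beside 2.18% and 8.91% of tested genes. None passed it at the 256-cell stage, beside 1.92% lower and 2.0% higher.

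In the list of germ plasm assembly and localisation, 10 genes were measured and 0 were called under CDK9. Beside this, 5.41% of tested genes were called at the 256-cell stage and 6.35% at the 1024-cell stage. At an unadjusted p under 0.05, 2 were higher at the 256-cell stage, beside 14.1% of tested genes, and 1 was higher and 1 lower at the 1024-cell stage, beside 14% higher and 3.8% lower. The tudor domain gene tdrd6, whose protein binds Buc, had by the authors' deposited table the highest mean with 124 counts and log2 fold changes of 0.19 (SE 0.39) and 0.36 (SE 0.47) at the 256-cell and 1024-cell stages under CDK9. The RNA-binding protein gene fxr1 rose by 1.74 (SE 0.72, adjusted p = 0.0423) under MiR430 at the 1024-cell stage by the authors' deposited table. It was the 1 gene of the list called there, beside 1.01% of tested genes called higher. Under CDK9 at that stage fxr1 had 1.04 (SE 0.75, adjusted p = 0.0908) by the authors' deposited table.

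The piRNA pathway list had 18 measured genes, of which 16 to 18 had an adjusted p, and tdrd7a was the 1 called in any comparison. It was called lower under CDK9 at the 1024-cell stage, beside 0.461% of tested genes. Besides tdrd7a, ddx4 and gtsf1 were lower at an unadjusted p under 0.05 under CDK9 at the 1024-cell stage, beside 3.8% of tested genes. The gtsf1 gene, whose protein works with Piwi proteins, had a mean of 115 counts and a value of -0.49 (SE 0.54, adjusted p = 0.279) by the authors' deposited table. The paralog tdrd7b, also named after its value was seen, had a mean of 13.2 counts and -0.59 (SE 0.94, adjusted p = 0.404) by the authors' deposited table. The values of the list lay on both sides of 0, and tdrd7a alone was called. In that comparison 11 of the 18 were below 0, beside 43.97% of all tested genes. The tudor domain gene tdrd6, also of this list, lay above 0 at 0.36 (SE 0.47, adjusted p = 0.390) by the authors' deposited table. The median log2 fold change of the list was -0.064 under CDK9 and -0.025 under MiR430 at the 1024-cell stage, beside 0.036 and 0.0065 over all tested genes. Under MiR430 at that stage 14 of the 18 were below 0, beside 44.7% of all tested genes. At an unadjusted p under 0.05, 1 was lower, pld6, beside 2.18% of tested genes, and 0 were higher, beside 8.91%. The pld6 gene, also named after its value was seen, had a mean of 8.46 counts and -1.56 (SE 1.70, adjusted p = 0.0760) by the authors' deposited table.

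Among 17 measured partners in translational control, 15 had an adjusted p under CDK9 at the 1024-cell stage and 2 of these rose, beside 5.89% of tested genes. The RNA-binding protein gene ybx1 rose by 1.60 (SE 0.62, adjusted p = 0.0133) and cnot3a, of the Ccr4-Not deadenylase complex, by 1.94 (SE 1.06, adjusted p = 0.0422) by the authors' deposited table. The median of this list was -0.084 at that stage, and 11 of the 17 were below 0, beside 43.97% of all tested genes. At an unadjusted p under 0.05, 3 were higher there, beside 14% of tested genes, and 1 was lower, beside 3.8%. The difference of ybx1 between stages under CDK9 was 3.20 in z (unadjusted p = 0.00138) and did not pass with an adjusted p of 0.271. That of cnot3a under MiR430 was 3.09 in z (unadjusted p = 0.00202) and did not pass with an adjusted p of 0.573. Another deadenylase gene, cnot6a, had 0.65 (SE 0.62, adjusted p = 0.188) at the 1024-cell stage by the authors' deposited table. The list had 0 calls among its 14 genes with an adjusted p at the 256-cell stage under CDK9, beside 5.41% of tested genes. There cnot1 was higher at an unadjusted p of 0.0129, beside 14.1% of tested genes higher at an unadjusted p under 0.05. The cnot1 gene was also named after its value was seen. Under MiR430 at the 1024-cell stage the list had 0 calls, beside 1.07% of tested genes. There ybx1 had 1.42 (SE 0.69, adjusted p = 0.0602) and cnot3a 0.78 (SE 1.01, adjusted p = 0.242) by the authors' deposited table. They were the 2 genes higher at an unadjusted p under 0.05, beside 8.91% of tested genes, and 0 were lower, beside 2.18%.

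Of 6 genes of germ cell migration, 4 had an adjusted p in each comparison, and cxcr4b was the 1 called in any of them. The genes cxcl12b and ackr3a had none and could not be called. The call of cxcr4b was under CDK9 at the 256-cell stage, beside 5.04% of tested genes called higher. The adhesion gene cdh1 had -0.21 (SE 0.33) and -0.19 (SE 0.28) under CDK9 at the 256-cell and 1024-cell stages by the authors' deposited table. Of 7 documented miR-430 targets, 3 rose under CDK9 at each stage, the Nodal pathway genes ndr1, lft1 and lft2, beside 5.04% of tested genes at the 256-cell stage and 5.89% at the 1024-cell stage. At the 256-cell stage 6 of the 7 had an adjusted p, nanos3 having none. At the 1024-cell stage tdrd7a was the 1 called lower, beside 0.461% of tested genes, and nanos3 was not called. The genes ndr1, lft1 and lft2 had at the 1024-cell stage 3.13 (SE 0.96), 2.37 (SE 1.35) and 3.23 (SE 1.05) in that order by the authors' deposited table. Under MiR430 0 of the 7 were called at either stage, beside 0.0566% of tested genes at the 256-cell and 1.07% at the 1024-cell stage. At an unadjusted p under 0.05, 3 were higher and 0 lower at the 256-cell stage, beside 2.0% of tested genes higher, and 2 were higher and 0 lower at the 1024-cell stage, beside 8.91% higher.

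**Figure D5:**
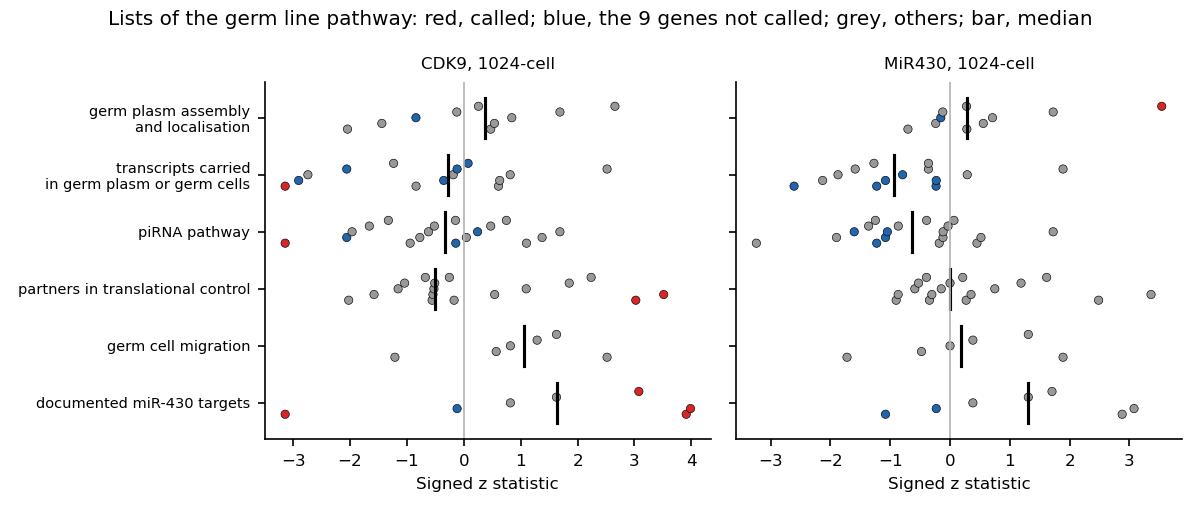
Signed z statistics of the measured genes of 6 lists under CDK9 and MiR430 at the 1024-cell stage, with called genes in red, genes of the 9 that were not called in blue, other genes in grey and the list median as a bar. The red point at -3.14 in 3 of the lists on the left is tdrd7a, and the red points above 3 are ybx1, cnot3a, ndr1, lft1 and lft2; on the right fxr1 at 3.54 is the 1 red point.

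The genes whose pattern over the 4 comparisons was most like that of tdrd7a were sought among 2351 genes with a mean of at least 50. Likeness was the Euclidean distance between signed z statistics, and the nearest were sh2d5 at 0.36, the kinase gene map4k5 at 0.657 and the cohesin subunit gene smc3 at 0.747. Their log2 fold changes under CDK9 at the 1024-cell stage were -1.22 (SE 0.74, adjusted p = 0.0566), -0.69 (SE 0.46, adjusted p = 0.0827) and -0.77 (SE 0.61, adjusted p = 0.117) by the authors' deposited table, so none of the 3 was called. The 3 genes were chosen by z in this same comparison among others, so their falls follow from the choice. The floor of 50 left out genes at the depth of tdrd7a itself, with its mean of 36.2.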

How the data were processed

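Enriched SLAM-seq was done in 18 libraries of 6 groups. The authors' tools, per the submitters' processing notes, included DESeq2, featureCounts, HISAT, Trimmomatic, Picard and SAMtools on the GRCz11 build, and their versions are not given in the sources used here. A count table deposited for 32520 genes has 18 library columns whose names match no sample label, and their values were not used. The planned count tests and the comparison of untreated embryos between stages were therefore not run, and depth per library was not used. Gene symbols, coordinates and exon length came from that table, and 2 symbols of the lists came through gene IDs from the reference names.

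The results rest on 4 deposited comparisons, whose mean normalized count is a signal averaged by the authors and is the same in each table. The deposited log2 fold changes and their SE are shrunken estimates, judged from values near 0 beside small p. The deposited p-values and adjusted p-values are the authors' own, and 139 genes had none. A gene was called at an adjusted p under 0.05.

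A signed z was made from each p. Stage differences were z at the 1024-cell stage minus z at the 256-cell stage over the square root of 2, adjusted by Benjamini-Hochberg over all genes. The stage difference and the recentring were tried on simulated, independent z statistics with known shifts, and no other step was tested on simulated data. Named genes are the 9 members, and from each list every called gene and the 2 with the highest mean. Outside this rule gra, tdrd7b, pld6, cnot1 and buc2l were named after their values were seen. The genes cxcl12b and ackr3a were named because they had no adjusted p. Members and lists were chosen with earlier results of these data known. Replicates are labelled biological; their origin is not stated further. Python 3.11.15, numpy 2.4.6, pandas 2.3.3, scipy 1.17.1 and matplotlib 3.10.9 were used.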

Additional observations from a re-analysis of the deposited data

How the results depend on the processing

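Of 152 values of single members under the alternatives, 146 kept their direction and side of the threshold. Much of this was fixed beforehand, so the count does not measure robustness. Only recentring could turn a direction. An adjusted p under 0.01 and the authors' rule can only remove calls, and tdrd7a held the 1 call among the members. Recentring shifts nothing if tested genes already have a median z of 0, as in the 256-cell MiR430 comparison. Under CDK9 at the 1024-cell stage tdrd7a was not called at an adjusted p under 0.01 or by the authors' rule, which left 0 of the 9 genes called, and it kept its call when adjusted over every gene with a p (adjusted p = 0.0476) and with recentred statistics (0.0249). Recentring also called dazl, which made 2 of the 9, and a mean of at least 50 called dazl alone among 3 tested members. Recentring turned the sign of dnd1 under CDK9 at the 256-cell stage (adjusted p = 0.991) and at the 1024-cell stage (adjusted p = 0.977). Over all genes, an adjusted p under 0.01 and the authors' rule called 252 and 232 genes under CDK9 at the 256-cell stage, against 494. At the 1024-cell stage they called 338 and 322, against 744 of 11724 tested genes. Under MiR430 at the 1024-cell stage they called 23 and 21, against 115. Under CDK9 at the 1024-cell stage a mean of at least 50 gave 435 calls among a smaller set of 2390 tested genes. Recentring at the 256-cell stage under CDK9 gave 302 higher and 65 lower, against 460 and 34. For CDK9 the stage difference called 12 of 2390 genes with a mean of at least 50 and 15 from log2 fold changes, against 7 of 16996. For MiR430 these gave 14 and 8, and recentring 2, against 4, over the same numbers of genes. None of the 9 genes was called by any of these stage tests. Without division by exon length 7 members changed rank. No paired analysis was possible because the library columns carry no sample names, and DESeq2 with its own size factors, the unfiltered counts and the fits without each replicate were not run for the same reason. Means of 7.37 counts for nanos3 and 13.0 for dnd1 limit what can be detected for them.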

Other observations

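Markers of the oocyte and its coat were measured too. The 7 genes zp3b, zp2.1, gdf9, bmp15, figla, zar1 and btg4 had means from 1.54 to 29.0 normalized counts, and 0 of those with an adjusted p were called in any comparison by the authors' deposited table. Over all tested genes 5.41% and 6.35% were called under CDK9 at the 256-cell and 1024-cell stages, and 0.0566% and 1.07% under MiR430. The zp2.1 gene had no adjusted p in any comparison and bmp15 none under CDK9 at the 256-cell stage, so neither could be called there. At an unadjusted p under 0.05, 1 of the 7 passed under CDK9 at the 256-cell stage, beside 14.1% of tested genes higher and 3.12% lower, and 0 in the other 3 comparisons. The gene buc2l, a relative of buc that was named after its values were seen, had a mean of 39.2 normalized counts and log2 fold changes of 0.35 (SE 0.49) and -0.68 (SE 0.77, adjusted p = 0.250) under CDK9 at the 256-cell and 1024-cell stages by the authors' deposited table.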
